A study of Rattus norvegicus with 3 samples.

Results

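Kit and Flt3 are receptor tyrosine kinases, and Kitlg and Flt3lg are the genes of their ligands, stem cell factor and Flt3 ligand. The 4 genes were taken by name from the 34034 features counted in each of 2 droplet libraries of rat thymus, and their levels were read in each cell label that the authors had deposited. Each ligand is made as a membrane-bound protein that can be shed from the cell surface, and binding makes its receptor pair up and phosphorylate itself, which passes the signal on through adaptors and kinases such as Grb2, Gab2, PI3-kinase and the Stat5 proteins. In the thymus, Kit is known from the earliest T cell progenitors and from mast cells, melanocytes and other lineages that keep the receptor, and Flt3 is known from progenitors that have not yet committed to the T lineage and from dendritic cells. Stromal cells are known to supply both ligands.

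The cells came from the thymus of 8-week-old inbred Lewis rats, and no treatment, transgene or mutation is given for them. One library held stromal cells, freed with Liberase TH and DNase I, enriched for CD45-negative cells on magnetic columns and then sorted. The other held thymocytes, freed with collagenase D and DNase I. Each group is 1 library, and how many animals it came from is not given in the sources used here. The level of a gene in a label is therefore given as UMIs (unique molecule counts) of the gene per 1000000 UMIs of that label's cells (CPM), with an exact Poisson 95% interval. Shares of cells carry exact Clopper-Pearson 95% intervals. These intervals cover counting error only, no difference between animals can be tested, and levels are compared for 1 gene between labels, never between genes.

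The stromal library had 13226 annotated cells with a median of 9087.5 UMIs (range 621 to 55374), in 29 labels, of which 24 held at least 20 cells. The thymocyte library had 8546 annotated cells with a median of 3994 UMIs (range 520 to 107058), in 25 labels, of which 21 held at least 20 cells. Labels with fewer than 20 cells were left out of the order of levels. The 2 libraries shared 28 barcodes among their annotated cells. Marker genes mostly followed the stromal labels: Pecam1 was highest in the EC:vEC label at 1224 CPM, Cdh5 in EC:capEC, Epcam in TEC:aaTEC1, Aire in TEC:mTEC2, Acta2 in vSMC/PC and Pdgfra in TMC2. The sorted stroma also held 1095 cells labelled Thymocyte, Myeloid or B cell. In the thymocyte library the label B+myeloid led by 3-fold for 4 of 4 myeloid, 4 of 6 B lineage and 6 of 8 dendritic cell markers tested, though Cd79a was highest in Treg, Dntt in DP and Ccr7 in Pre-Treg. It also led for Epcam (31.0 CPM), Krt8 (44.8 CPM), Col1a1 (211 CPM) and Kdr (52.3 CPM), which are epithelial, mesenchymal and endothelial genes. The labels MEC, nmSC, TMC1 to TMC4 and gdT are used as given. The gdT label could not be checked with Trdc or Trac, which are not among the feature names.

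The sequences just before the transcription start are shown for Kitlg and Kit, a ligand and its receptor whose levels ran in opposite ways in part of the epithelium. They are 250 bases from RefSeq on assembly GRCr8, whereas the counts were made on mRatBN7.2, and they are given 5′ to 3′ on the strand of the gene, with motif matches in capitals. The Kitlg stretch is chr7:36782410-36782659 on the plus strand and the Kit stretch is chr14:32978813-32979062 on the minus strand.
Kitlg: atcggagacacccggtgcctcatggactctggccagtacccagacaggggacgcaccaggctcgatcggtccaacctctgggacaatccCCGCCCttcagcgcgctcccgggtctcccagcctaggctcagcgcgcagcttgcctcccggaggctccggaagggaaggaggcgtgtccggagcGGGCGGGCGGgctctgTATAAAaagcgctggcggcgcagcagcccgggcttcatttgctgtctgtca
Kit: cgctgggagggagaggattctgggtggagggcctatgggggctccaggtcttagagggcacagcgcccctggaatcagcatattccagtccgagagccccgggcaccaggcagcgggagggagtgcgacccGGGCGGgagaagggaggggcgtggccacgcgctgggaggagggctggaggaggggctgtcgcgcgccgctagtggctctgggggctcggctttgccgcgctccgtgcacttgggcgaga
The capitals in Kitlg are a TATA box (TATAAA) 51 bases before the start and GC boxes (GGGCGG, on either strand) 161, 67 and 63 bases before it, of which the last pair overlap. The capitals in Kit are 1 GC box, 119 bases before the start. Of 33469 rat promoters of the same length, 12.9% hold TATAAA and 30.5% hold GGGCGG on either strand. The GC content was 67.2% for Kitlg and 70.8% for Kit, above 87.9% and 92.8% of those promoters, whose median was 51.2%. The Flt3lg and Flt3 stretches had a GC content of 57.6% and 56.0%. Flt3lg had no match to the 6 motifs searched and Flt3 had 1, an ETS core (GGAAGT) on the other strand 75 bases before the start, a motif that 19.2% of promoters hold. The other motifs searched were AGATAA (10.3% of promoters), TGTGGT (14.5%) and GTAAACA (3.21%). A match is a description of these letters and not a binding site.

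Kitlg had 34685 UMIs in the stroma, in 8976 cells (67.9%) and in 28 of 29 labels. It was highest in 2 endothelial labels. The EC:capEC label had 694 CPM (95% interval 669 to 719), with Kitlg in 546 of 636 cells, and EC:aEC had 577 CPM (525 to 632), with Kitlg in 79 of 90 cells. The ratio of the 2 labels was 1.20 (1.09 to 1.33), so their counting intervals placed EC:capEC above EC:aEC. Single EC:capEC cells held up to 43 UMIs of Kitlg, and 261 of the 636 held at least 5.

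Below EC:capEC and EC:aEC came mural and mesenchymal labels, with the third endothelial label, EC:vEC, among them. The vSMC/PC label had 392 CPM (371 to 413) and TMC1 had 371 CPM (361 to 381), and these neighbours were not told apart, with a ratio of 1.06 (0.994 to 1.12). TMC4 (325 CPM), MEC (325 CPM), nmSC (307 CPM), TMC2 (286 CPM) and EC:vEC (283 CPM) followed. TMC3 (231 CPM) and capFb (219 CPM) were the lowest of the mesenchymal labels. The epithelial labels divided into a high and a low group. TEC:early Pr had 265 CPM (256 to 274), TEC:cTEC 247 CPM (233 to 261) and TEC:aaTEC2 245 CPM (206 to 291), whereas TEC:mTEC1 had 98.7 CPM (91.2 to 107), TEC:aaTEC1 52.3 CPM and TEC:mTEC2 48.0 CPM. The step from capFb to TEC:mTEC1, 2.22 (2.04 to 2.42), separated the high labels from the low ones. At the foot of the order, the label TEC:mimetic(muscle) had 2 UMIs in 35 cells.

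**Figure D1:**
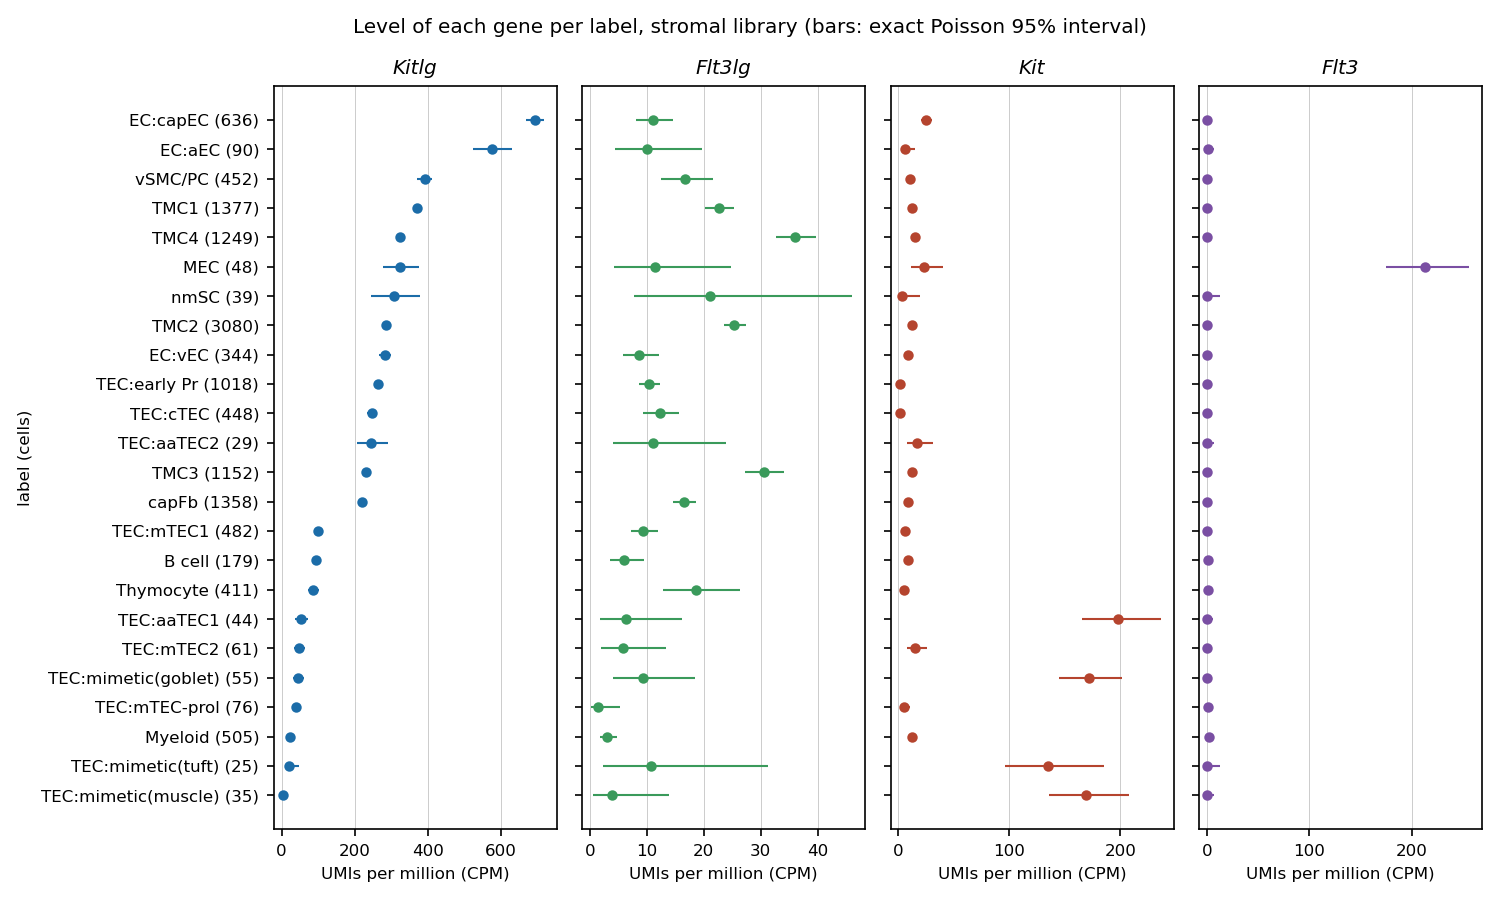
Level of Kitlg, Flt3lg, Kit and Flt3 in the 24 stromal labels of at least 20 cells, in UMIs per 1000000 UMIs of the label (CPM) (linear axis, own scale for each gene), with dots for the level, bars for the exact Poisson 95% interval and the number of cells in brackets. Kitlg is spread over endothelial, mural, mesenchymal and part of the epithelial labels, from 694 CPM in EC:capEC down to 3.84 CPM in TEC:mimetic(muscle), Kit stands out in 4 epithelial labels and Flt3 in MEC.

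Summed over the labels of a compartment, endothelial cells had 515 CPM of Kitlg (501 to 531), mural cells 392 CPM, mesenchymal cells 286 CPM (282 to 289) and epithelial cells 187 CPM (182 to 192). Endothelium was 1.80-fold above mesenchyme (1.75 to 1.86) and 2.76-fold above epithelium (2.65 to 2.87). Mesenchymal labels, the most numerous, held 65.1% of all Kitlg UMIs from 62.1% of the cells, and endothelium held 13.2% from 8.11% of the cells. The sort decides these cell shares, so the shares of UMIs are not those of the tissue.

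Within a label, Kitlg also differed with the authors' first clustering of the same cells. EC:capEC cells in the cluster Endo-1 had 785 CPM (534 cells) and those in Endo-2 had 349 CPM (101 cells). For EC:aEC the values were 725 CPM (61 cells) and 404 CPM (29 cells). For EC:vEC they were 292 CPM (284 cells) and 241 CPM (60 cells). Kitlg was thus higher in Endo-1 in each of the 3 endothelial labels. Taken whole, whatever the label, Endo-2 held 1966 UMIs of epithelial markers in 243 cells, and Endo-1 held 262 in 882 cells. Endo-2 was also deeper (median 10845 against 6935 UMIs), and the part of mixed droplets in its lower Kitlg was not tested. The TEC:mTEC1 label divided further: its cells in TEC-b had 167 CPM (176 cells) and in TEC-c 217 CPM (54 cells), but those in TEC-d had 37.3 CPM (232 cells). Clusters and labels were drawn from the same expression values, so this is a description of where the UMIs lay.

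Cells of blood origin in the stromal library also held Kitlg UMIs: 86.3 CPM (72.9 to 101) in the Thymocyte label, 93.8 CPM in B cell and 23.7 CPM in Myeloid. In the thymocyte library, by contrast, the DP label had 1 Kitlg UMI in 5202 cells (0.0529 CPM, up to 0.295). The DN label had 0 UMIs in 390 cells, an upper limit of 0.341 CPM. Kitlg UMIs in thymocytes were thus near absent except in the library that held stroma, and whether free RNA or mixed droplets carry them there was not tested. In the thymocyte library 51 of the 59 Kitlg UMIs lay in 12 of 170 B+myeloid cells (21.3 CPM, 15.9 to 28.1), the label that also led for the epithelial, mesenchymal and endothelial genes named above. Their part in the Kitlg level was not tested.

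The 5 genes whose level followed Kitlg most closely over the 24 stromal labels, by Pearson correlation of log2(CPM + 1) among 13997 genes, were Cavin3 (r = 0.924), Mpdz (0.918), Tns2 (0.917), C11h3orf70 (0.916) and Rbms1 (0.903). The labels share 1 library and this correlation is given as a description. Of the proteases known to shed membrane ligands, Adam10 had 202 CPM and Adam17 90.1 CPM in EC:capEC, the label with the highest Kitlg, and Mmp9 had 1 UMI there. None of these 3 genes led a stromal label by 3-fold.

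Flt3lg had 2499 UMIs in 2132 stromal cells (16.1%) and at most 4 UMIs in a cell. Its order over labels differed from that of Kitlg, since mesenchyme led and endothelium was low. TMC4 had 36.1 CPM (32.7 to 39.7; 318 of 1249 cells), TMC3 30.5 CPM (27.2 to 34.0; 256 of 1152 cells) and TMC2 25.4 CPM (23.5 to 27.4; 595 of 3080 cells). TMC4 was above TMC3 by 1.18-fold (1.02 to 1.37) and TMC3 above TMC2 by 1.20-fold (1.05 to 1.37). TMC2 and TMC1 (22.6 CPM) were not told apart, with a ratio of 1.12 (0.982 to 1.29). The label capFb had 16.5 CPM (14.6 to 18.6), the lowest of the mesenchymal labels for this ligand too.

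The label vSMC/PC was close to capFb, at 16.6 CPM. The other stromal labels with more than 20 Flt3lg UMIs lay lower: TEC:cTEC at 12.2 CPM, EC:capEC at 11.0 CPM, TEC:early Pr at 10.3 CPM, TEC:mTEC1 at 9.33 CPM and EC:vEC at 8.57 CPM. The Thymocyte label of this library was an exception at 18.7 CPM (12.8 to 26.3). Mesenchymal labels together had 25.3 CPM (24.2 to 26.5) and 80.0% of the UMIs, endothelium 9.92 CPM (7.95 to 12.2) and epithelium 9.53 CPM (8.44 to 10.7). Mesenchyme was 2.55-fold above endothelium (2.06 to 3.20) and 2.66-fold above epithelium (2.34 to 3.02). Thus the summed endothelium was above mesenchyme for Kitlg, though EC:vEC alone was below TMC1 and TMC4, and below mesenchyme for Flt3lg. In TMC4, Adam10 had 75.7 CPM, Adam17 39.9 CPM and Mmp9 17.4 CPM. The genes most like Flt3lg over the 24 labels were Prickle2 (r = 0.905), Frem1 (0.899), Cygb (0.889), Zbtb20 (0.880) and Plscr4 (0.879).

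Thymocytes themselves held Flt3lg, with 979 UMIs in 865 cells (10.1%) and in 22 of 25 labels. The highest level was in Immature CD8-2 at 37.0 CPM (22.6 to 57.1; 16 of 62 cells), followed by intCD4 at 31.3 CPM (9 UMIs) and Immature CD4-2 at 24.5 CPM. These neighbours were not told apart: Immature CD8-2 over intCD4 was 1.18 (0.515 to 2.95). The DP label, the largest, had 19.98 CPM (18.02 to 22.1; 353 of 5202 cells). The DN label had 7.201 CPM (5.69 to 8.99; 65 of 390 cells) and gdT 2.94 CPM (1.27 to 5.79; 8 UMIs), and the step between these last labels, 2.45 (1.18 to 5.87), was the only one between neighbours whose interval did not include 1. DN was below DP, at a ratio of 0.360 (0.279 to 0.461). The share of cells with a UMI ran the other way, while the median depth was 23190 UMIs in DN and 3205.5 in DP, and no order is read from it. Over 21 labels the genes most like Flt3lg were Rhof (r = 0.820), Tut4 (0.806), Ntan1 (0.791), Abhd18 (0.785) and Cbx7 (0.774).

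Kit in the stroma was highest not in a blood-derived label but in 4 small epithelial ones. TEC:aaTEC1 had 198 CPM (165 to 236; 32 of 44 cells), TEC:mimetic(goblet) 171 CPM (145 to 201; 42 of 55 cells), TEC:mimetic(muscle) 169 CPM (135 to 208; 29 of 35 cells) and TEC:mimetic(tuft) 135 CPM (95.7 to 186; 13 of 25 cells). These 4 were not told apart, with ratios between neighbours of 1.16 (0.904 to 1.48), 1.01 and 1.25 (0.845 to 1.88). The next label, EC:capEC, was lower by a ratio of 5.42 (3.65 to 7.90).

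Most of these cells lay in 1 cluster of the authors' first clustering, TEC-e. Kit was found in 114 of its 133 cells (85.7%), at 187 CPM (169 to 206). In the 2205 cells of the other TEC clusters it was found in 71 cells (3.22%), at 4.52 CPM (3.75 to 5.39). These clusters were taken whole, whatever the label. They thus include MEC cells, which lay in cluster TEC-a, among them 1 with 12 Kit UMIs. Inside TEC-e the level was 220 CPM in aaTEC1 (36 cells, 183 to 262), 190 CPM in goblet (49 cells, 160 to 223), 192 CPM in muscle (30 cells, 153 to 238) and 174 CPM in tuft (6 cells, 101 to 278), with overlapping intervals. The values were lower in neuroendo at 106 CPM (8 cells, 56.7 to 182) and in aaTEC2 at 57.5 CPM (3 cells, 18.7 to 134), while the 1 ionocyte cell held 3 UMIs. The neuroendo interval overlapped those of goblet, muscle and tuft, and the aaTEC2 interval that of tuft. Outside TEC-e, the aaTEC1 label (8 cells) and the goblet label (6 cells) had 0 Kit UMIs, although the tuft label still had 115 CPM (19 cells) and the muscle label 56.8 CPM (5 UMIs in 5 cells). The cluster TEC-e was also marked by Foxi1, a transcription factor known from ionocytes, in 127 of 133 cells (514 CPM, against 0.296 CPM in the other TEC clusters), a gene chosen after its values were seen. Foxi1 does not go with the names goblet and muscle, so these cells are called by their cluster here and given no other name. Epcam (1758 CPM) and Krt8 (1242 CPM) were high in the same cells, and mast cell markers gave 2 UMIs in all cells of the cluster with Kit.

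Kitlg and Kit ran in opposite ways in part of the epithelium. TEC-e cells had 33.8 CPM of Kitlg, found in 24.1% of them, and the other TEC clusters together had 198 CPM, found in 70.3%. Conversely TEC:early Pr and TEC:cTEC, with 265 and 247 CPM of Kitlg, had the lowest Kit levels of the stroma at 1.65 CPM (1.01 to 2.54; 19 of 1018 cells) and 1.40 CPM (0.564 to 2.89; 6 of 448 cells). Other epithelial groups had little Kitlg without high Kit. Cluster TEC-d had 36.5 CPM of Kitlg and 8.76 CPM of Kit, TEC:mTEC2 48.0 and 14.9 CPM, and TEC:mTEC-prol 39.5 and 5.12 CPM. The correlation of the 2 genes over the 24 labels of the whole stroma was r = -0.548. Of Kit's partners at TEC:aaTEC1, the adaptor Grb2 had 167 CPM, the PI3-kinase subunit Pik3r1 144 CPM, the phosphatase Ptpn11 90.4 CPM, Stat5b 68.2 CPM, Sos1 57.1 CPM, Lyn 52.3 CPM and Jak2 34.9 CPM. The PI3-kinase subunit Pik3cd had 0 UMIs. Among the negative regulators, the ubiquitin ligases Cblb and Cbl had 52.3 and 27.0 CPM and Ptpn6 had 19.0 CPM. The genes most like Kit over labels were Gnaz (r = 0.898), Lgals5 (0.886), Clnk (0.885), Neurl1 (0.885) and Ctxn3 (0.884). Clnk, an adaptor of immune receptor signalling, had 332 CPM in TEC-e and the G protein subunit Gnaz had 60.9 CPM.

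Outside the epithelium Kit was low but widespread. Of all stromal Kit UMIs 53.5% lay in mesenchymal cells, at 11.8 CPM, and at most 3 were found in 1 such cell. TMC2 had Kit in 280 of 3080 cells (9.09%; median depth 8269.5), compared with 1.34% of the TEC:cTEC cells at a greater median depth of 10535. The mesenchymal share was thus the higher at the lower depth, and the part of free RNA in it was not tested. EC:capEC had 24.9 CPM (20.5 to 30.0; 65 of 636 cells), with up to 7 UMIs in a cell, above EC:vEC at 8.85 CPM and EC:aEC at 6.24 CPM.

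Kit-positive cells were compared with the other cells of their own label. They were deeper (in EC:capEC a median of 9108 against 5663 UMIs, in EC:vEC 12283.5 against 9469.5), and a deeper cell is more likely to show a UMI, so the ratios are of CPM. In EC:capEC, the 65 Kit-positive cells had less Cxcl12, a chemokine of progenitor homing (1646 against 3547 CPM, ratio 0.464, 0.435 to 0.495), and less of the vein-associated adhesion gene Selp (4.92 against 47.9 CPM). The summed endothelial markers were alike there (1.01, 0.964 to 1.07), and mast cell and melanocyte markers had 0 UMIs. In EC:vEC, the 28 Kit-positive cells had more of the chemokines Ccl21 (5422 against 681 CPM, ratio 7.97, 7.50 to 8.46) and Ccl19 (541 against 180 CPM, ratio 3.001, 2.55 to 3.53). The same cells also had more of the summed mesenchymal markers (2211 against 601 CPM) and less of the endothelial ones (2144 against 2988 CPM), and the part of mixed droplets was not tested. Among the EC:vEC cells of the cluster Endo-1 alone (18 with Kit and 266 without), Ccl21 was at 83.4 against 74.9 CPM (1.11, 0.647 to 1.80), so its difference lay outside that cluster, whereas Ccl19 was at 774 against 144 CPM (5.36, 4.45 to 6.44). Of the 2033 Ccl21 UMIs in the 28 Kit-positive cells, only 18 lay in the 18 cells of Endo-1. The Ccl21 ratio thus rests on the few Kit-positive cells outside it, and its interval does not cover differences between cells. In TMC4, the 148 Kit-positive cells had 33518 CPM of Ccl21 against 20253 CPM in the rest (1.65, 1.64 to 1.67) and less Il7, the cytokine of early thymocytes (0.728, 0.633 to 0.835). TMC4 was named after its values were seen. The same contrasts in TMC1, TMC2, TMC3 and capFb are not given here, so nothing particular to TMC4 is read from it.

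Ligand and receptor were also counted in the same cells. Kit was found in 9.24% of stromal cells with a Kitlg UMI and in 8.99% of those without. Cells with Kitlg were deeper (median 9686.5 against 7512 UMIs), and labels went opposite ways. The shares were 10.8% and 6.67% in EC:capEC and 10.3% and 6.71% in capFb. They were 66.7% and 75.9% in TEC:aaTEC1 and 68.4% and 80.6% in TEC:mimetic(goblet). No relation of the genes is therefore read from the pooled shares. In all, 829 stromal cells held both, 8147 Kitlg alone and 382 Kit alone. In EC:capEC, where most cells held Kitlg, 59 of the 65 Kit-positive cells held both.

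**Figure D2:**
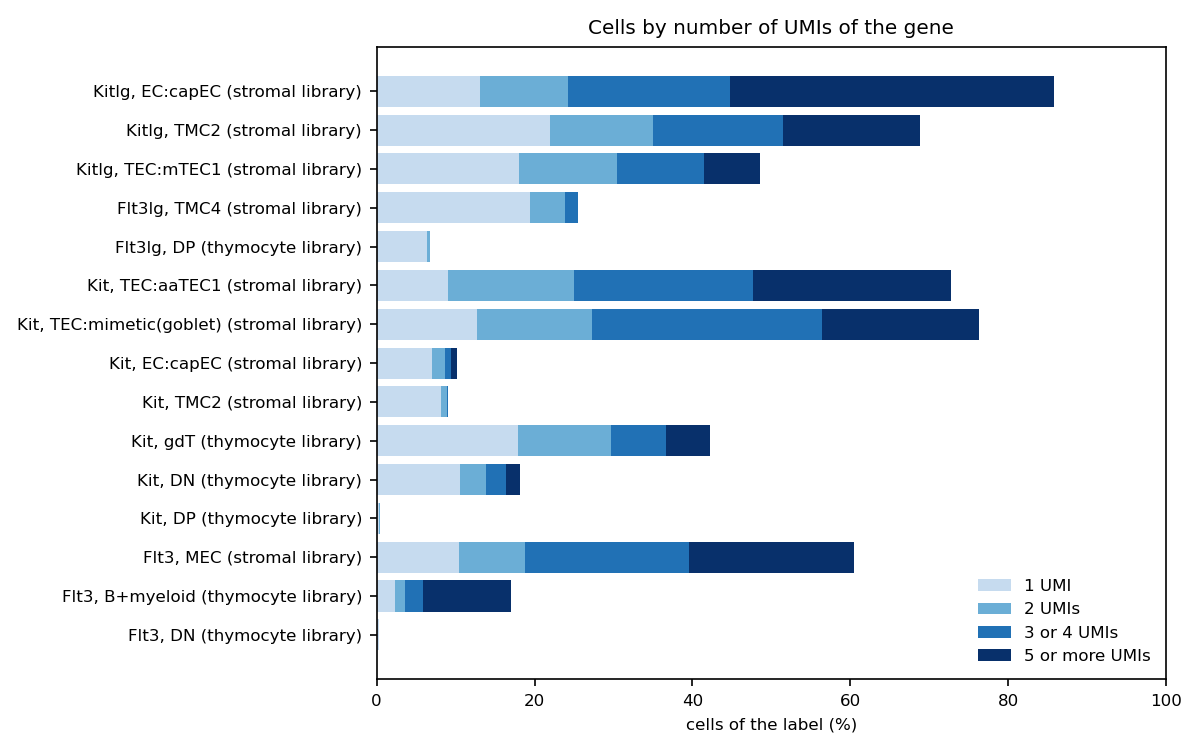
Share of the cells of a label (percent, horizontal axis) that held 1, 2, 3 or 4, or at least 5 UMIs of the gene, as stacked bars, for 15 pairs of a gene and a label. Kitlg reached 5 or more UMIs in 41.0% of EC:capEC cells. In the labels shown, cells with Flt3lg, and TMC2 cells with Kit, mostly held single UMIs. Depth differs between labels, and the bars are not compared between genes.

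In the thymocyte library Kit had 530 UMIs in 280 cells (3.28%). The gdT label had the highest level at 47.4 CPM (39.6 to 56.3), with Kit in 54 of 128 cells (42.2%, 33.5 to 51.2). DN had 14.3 CPM (12.1 to 16.7; 71 of 390 cells), DP-P 10.5 CPM (8.99 to 12.1; 106 of 848 cells) and DP 1.32 CPM (0.855 to 1.95; 20 of 5202 cells). The order gdT, DN, DP-P, DP held beyond counting error at each of these steps: gdT over DN was 3.31 (2.60 to 4.21), DN over DP-P 1.37 (1.10 to 1.70) and DP-P over DP 7.92 (5.19 to 12.6). B+myeloid (7.53 CPM, 18 UMIs) was not told apart from DP-P, with DP-P over B+myeloid at 1.39 (0.855 to 2.40). Past this point the labels held few UMIs: Mature CD4-2 had 7, of which 5 were in 1 cell, and 8 of the 21 labels had 0. With every cell thinned to 3000 UMIs, which left out 1 gdT, 2 DN, 12 DP-P and 2186 DP cells that were shallower, Kit was found in 10.2% of gdT, 1.55% of DN, 2.03% of DP-P and 0.398% of DP cells. At that depth DN was not above DP-P, unlike the CPM, so no order of these labels is read from the shares, and DN over DP was 3.89. The lead of gdT over the next label was 1.40 at 3000 UMIs and turned to 0.703 at 1000 UMIs, where gdT kept 6 Kit UMIs, both against intCD4 with 1 UMI counted as 3.

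**Figure D3:**
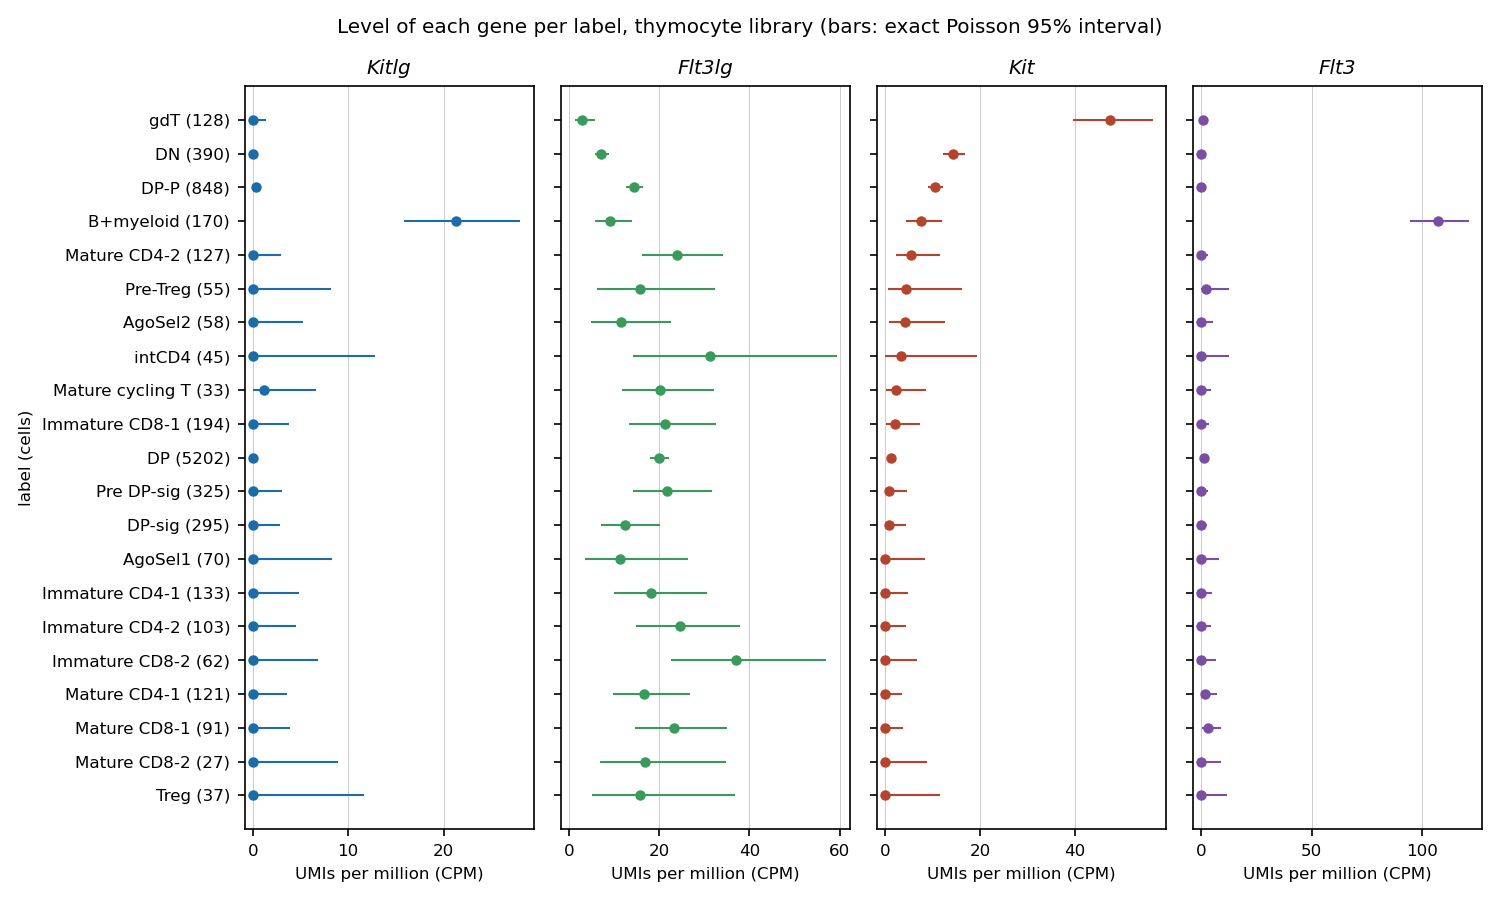
Level of Kitlg, Flt3lg, Kit and Flt3 in the 21 thymocyte labels of at least 20 cells, in UMIs per 1000000 UMIs of the label (CPM) (linear axis, own scale for each gene), with dots for the level, bars for the exact Poisson 95% interval and the number of cells in brackets. Kit is highest in gdT at 47.4 CPM, Kitlg and Flt3 in B+myeloid at 21.3 and 107 CPM, and Flt3lg is spread over the labels with wide intervals.

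Of the 280 Kit-positive cells, 178 lay in 1 cluster, DN, which was also the deepest (median 33322 UMIs). Cluster DP-P1 (median 13913 UMIs) held 45, at 6.39 CPM. The authors' cluster DN, with 510 cells from several labels, had 21.9 CPM of Kit (19.8 to 24.1) in 178 cells (34.9%). Within it the gdT label had 49.5 CPM (54 of 111 cells), the DN label 18.8 CPM (63 of 192 cells) and the DP-P label 15.8 CPM (59 of 199 cells). The cells labelled DN but placed in cluster DP-P2 had 2.37 CPM (5 of 151 cells), and the 12 gdT-labelled cells in cluster DP1 had 0. The label DN thus covered cells that differed in Kit by the cluster they were placed in.

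Inside the gdT label, the 54 Kit-positive cells (median 24929 UMIs) were set beside the 74 without a Kit UMI (16054.5). Genes known from early progenitors were higher in the Kit-positive cells: Mef2c at 37.2 against 5.51 CPM (6.74, 3.06 to 17.6), Bcl11a at 26.8 against 3.15 CPM (8.52, 3.07 to 32.8) and Hoxa9 at 37.2 against 4.73 CPM (7.87, 3.39 to 22.4). Hhex had 32 UMIs in the Kit-positive cells and 0 in the rest, a ratio of 9.32 (2.92 to 47.6) with the 0 counted as the floor of 3 UMIs. Lyl1 was 2.76-fold higher (1.45 to 5.61), and Spi1, with 9 against 2 UMIs, had a ratio of 2.62 (0.654 to 15.1). Other members of the same list did not move with Kit: Myb had a ratio of 0.940 and Runx1 of 1.12, Meis1 had 0 UMIs in both, and the sum over the list was 1.07 (1.02 to 1.12). Of genes of later steps, the recombinase gene Rag1 was lower (262 against 445 CPM, 0.589, 0.516 to 0.672) and so was the pre-T receptor chain Ptcra (0.785, 0.673 to 0.916), whereas the interleukin receptor Il7r was slightly higher (1.25, 1.07 to 1.47). The Notch target Hes1 was alike (0.993, 0.850 to 1.16). Mast cell markers had 12 UMIs in the Kit-positive cells and 10 in the rest, and 20 of the label's 22 were of Tpsab1. All 54 Kit-positive cells lay in the cluster DN, against 57 of the other 74. Within that cluster the ratios were 8.57 (3.45 to 27.5) for Mef2c, 7.74 for Bcl11a, 7.14 for Hoxa9 and 0.686 (0.596 to 0.788) for Rag1, whereas that of Il7r, 1.14 (0.975 to 1.34), was not told apart from 1.

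**Figure D4:**
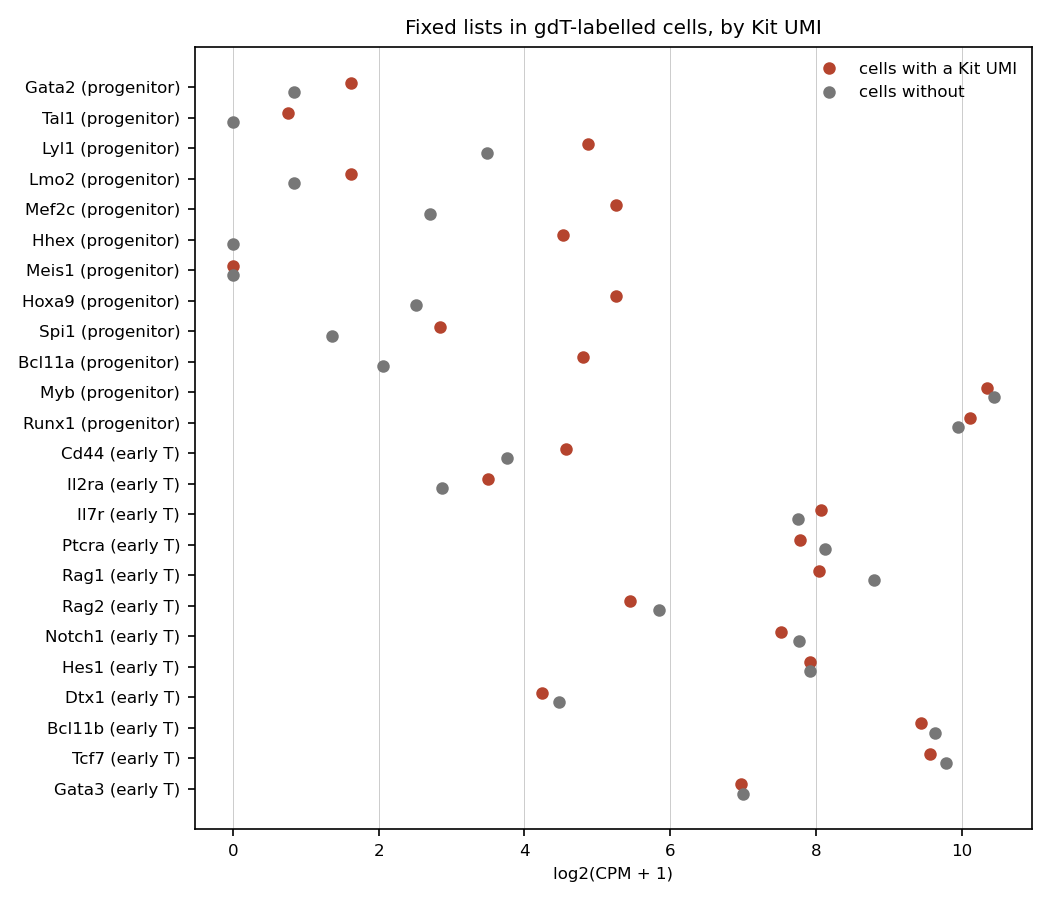
Level of the genes of the progenitor transcription factor and early T stage lists in gdT-labelled cells with a Kit UMI (red, 54 cells) and without (grey, 74 cells), as log2(CPM + 1) on the horizontal axis, 1 pair of dots per gene. Hhex, Mef2c, Bcl11a and Hoxa9 show the widest gaps, and Rag1 lies lower in the cells with Kit.

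The 71 Kit-positive cells of the DN label were deeper still beside the other 319 (44551 against 18511 UMIs). They had Il7r at 35.7 against 6.22 CPM (5.74, 4.06 to 8.23), Notch1 at 90.6 against 43.4 CPM (2.09, 1.78 to 2.45) and Rag1 at 137 against 368 CPM (0.372, 0.336 to 0.411). Hoxa9 had 18 UMIs in these cells and 0 in the rest. The 2 sets lay in different clusters, since 63 of the 71 Kit-positive cells and 129 of the other 319 were in cluster DN. Within that cluster Il7r had a ratio of 3.98 (2.80 to 5.75), Notch1 of 1.80 (1.51 to 2.14) and Rag1 of 0.704 (0.621 to 0.798), so the gaps of Il7r and Rag1 were narrower there. Unlike in the gdT label, Hhex (1 against 0 UMIs) and Mef2c (0 against 6 UMIs) gave too few UMIs to place. The signalling partners Gab2 (1.69, 1.40 to 2.05) and Lyn (2.30, 1.54 to 3.45) were higher in the Kit-positive DN cells, as they were in the Kit-positive gdT cells (1.82, 1.46 to 2.28, and 2.20, 1.49 to 3.31). Within cluster DN the DN label gave 1.65 (1.33 to 2.05) for Gab2 and a smaller 1.60 (1.04 to 2.46) for Lyn. The gdT label gave 1.90 and 2.05 there. Both genes were picked from the 12 signal relay genes after their values were seen, and the others are not given here. The genes most like Kit over the 21 labels were Rab6b (r = 0.845), Kcnk12 (0.829), Hes1 (0.826), Ptgr1 (0.819) and Dnph1 (0.814).

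DN and DP were compared as stages for the members and the lists around them, on genes with at least 20 UMIs in the higher label. Of the 12575 genes tested, 10.9% were at least 3-fold above in DN and 15.4% at least 3-fold above in DP. Of the 3 members tested, Kit was above in DN (10.8-fold, 7.07 to 17.2), Flt3 was above in DP on 24 UMIs, and Flt3lg passed neither way. The Flt3 ratio rests on 1 DN UMI. Of 12 early T genes, 3 were above in DN: Il7r (15.1 against 1.27 CPM), Notch1 (57.7 against 16.2 CPM) and Hes1 (84.7 against 3.22 CPM). Another 2, Il2ra (3.51 against 67.5 CPM) and Rag1 (298 against 1952 CPM), were above in DP. Of 12 signal relay genes 0 were above in DN and 2 in DP, Pik3r1 (173 against 600 CPM) and Stat5b (88.4 against 335 CPM), and their median DN to DP ratio was 0.582 beside 0.794 over all genes tested. Of 7 negative regulators, 0 passed either way (median 0.944). Of 3 progenitor factors tested 0 were above in DN and 1, Lyl1, was above in DP (6 against 37 UMIs, 0.554 against 1.96 CPM). Adam10 was 3.44-fold above in DP.

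Flt3 in the stroma was highest in 1 label, MEC, which had 112 of the 157 Flt3 UMIs, in 29 of its 48 cells (60.4%, 45.3 to 74.2), at 213 CPM (175 to 256). Flt3 was found in 61 stromal cells and 13 labels in all. The next label of at least 20 cells, Myeloid, had 2.15 CPM (13 UMIs in 7 of 505 cells), 98.7-fold lower (55.4 to 191). EC:capEC, EC:vEC, TEC:cTEC and TEC:mTEC1 had 0 UMIs, with an upper limit of 0.829 CPM in the 636 EC:capEC cells. Flt3 was the only 1 of the 4 members to lead a stromal label by at least 3-fold on at least 20 UMIs, which 9.44% of 13149 genes did (10.1% on at least 10 UMIs and 8.64% on at least 50). With cells thinned to 3000 UMIs the lead was 22.9, against EC:aEC with 1 UMI counted as 3.

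The MEC cells with Flt3 were not deeper than those without (median 10939 against 11808 UMIs). The 10 cells with the most Flt3, with 6 or 7 UMIs each, held 16 to 86 UMIs of Msln and 5 to 19 of Upk3b, genes known from mesothelium and chosen after their values were seen, and 0 to 3 UMIs of dendritic cell markers. The progenitor factor Spi1 had 0 UMIs in the Flt3-positive cells, while Meis1 was at 247 against 228 CPM in cells with and without Flt3. MEC also had 12 Kit UMIs, all in 1 cell, which held 936 mast cell marker UMIs, 334 of them of the protease Cpa3, and no Flt3. Without that cell MEC had 0 Kit UMIs. The genes most like Flt3 over the 24 labels were Cpa3 (r = 0.953), Slc26a3 (0.941), Upk3b (0.929), Tpsb2 (0.910) and Rundc3a (0.910). The places of Cpa3 and Tpsb2 rest on the same single cell, and without it their correlations were -0.00409 and -0.0908. Of Flt3's partners at MEC, Pik3r1 had 313 CPM, Cblb 148 CPM, Gab2 110 CPM, Stat5b 96.8 CPM, Grb2 74.0 CPM and Lyn 15.2 CPM.

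In the thymocyte library Flt3 lay in B+myeloid. That label had 256 of the 292 UMIs, in 29 of 170 cells (17.1%, 11.7 to 23.6), at 107 CPM (94.4 to 121), with up to 24 UMIs in a cell. The next label, Mature CD8-1, had 3 UMIs (3.16 CPM), and the ratio was 33.8 (11.5 to 165). DN, which had Kit, had 1 Flt3 UMI in 390 cells (0.0923 CPM, 0.00234 to 0.514) at a median depth of 23190, and gdT had 2 UMIs, both in 1 cell. DP had 24 UMIs in 21 of 5202 cells (1.27 CPM). Kit, Kitlg and Flt3, 3 of the 4 members, led a thymocyte label by at least 3-fold, Kit in gdT and the others in B+myeloid, beside 11.9% of 10010 genes (11.2% on at least 10 UMIs and 12.2% on at least 50). The lead of Kit did not hold at 3-fold with cells thinned to 3000 UMIs, where it was 1.40 against 1 UMI of intCD4 counted as 3. The lead of Kitlg, 6.02-fold, was set against Mature cycling T, with 1 UMI counted as the floor of 3. With cells thinned to 3000 UMIs it was 96.1, against DP with 1 UMI counted as 3. The lead of Flt3 was 6.94 at that depth, against Mature CD4-1 with 1 UMI counted as 3.

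The 29 Flt3-positive B+myeloid cells (median 23070 UMIs, against 9096 in the other 141) had the dendritic cell markers at 14862 against 3711 CPM (4.01, 3.88 to 4.13). That sum mostly follows Cd74, which gave 15493 of the label's 17326 UMIs of these markers. The markers of cross-presenting dendritic cells Xcr1 (110 against 9 UMIs, ratio 26.3, 13.4 to 59.1) and Clec9a (90 against 5 UMIs, ratio 38.7, 16.0 to 122) were higher in the Flt3-positive cells. The plasmacytoid marker Siglech had 628 UMIs in them and 0 in the rest, and Ccr7 had 0 and 16. Myeloid markers (616 against 3016 CPM) and B lineage markers (342 against 806 CPM) were lower, and mast cell markers had 0 against 120 UMIs. Of these 29 cells 9 also held Kit, and 3 cells of the label held Kit alone. The 12 Kit-positive cells had more Xcr1 (89 against 30 UMIs, 19.2, 12.6 to 30.1) and 0 Siglech UMIs. All 628 Siglech UMIs thus lay in cells with Flt3 and without Kit. The genes most like Flt3 over the 21 labels were Lpcat2 (r = 0.941), Pglyrp1 (0.939), Clec4a1 (0.936), RT1-Da (0.930) and Apobec1 (0.928).

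Leads of at least 3-fold in the lists around the 4 genes were counted beside the share of all genes tested, 9.44% in the stroma and 11.9% in thymocytes. In the stroma, of 12 signal relay genes 0 did (median lead 1.15, beside 1.21 over all genes tested), of 7 negative regulators 1 (Cbl in Thymocyte, 4.20-fold), of 12 progenitor factors 1 (Spi1 in Myeloid, 5.99-fold) and of 6 other niche factors 1 (Ccl25 in TEC:cTEC, 4.83-fold). Of 11 early T genes tested 5 did, all in Thymocyte, and of 7 mast cell markers 5 did, all in MEC, the label of the 1 cell with 936 mast cell marker UMIs. In the thymocyte library, of 10 signal relay genes tested 1 did (Lyn in B+myeloid, 12.2-fold), and of 10 progenitor factors tested 6 did. Of these, Hoxa9 led in gdT, where Kit was highest, and Lmo2, Mef2c, Hhex, Spi1 and Bcl11a led in B+myeloid, where Flt3 was highest. B+myeloid also led by 3-fold for 4 of 4 myeloid markers, 3 of 3 epithelial markers and 3 of 3 other niche factors tested. Its leads were thus not particular to progenitor factors. Of 12 early T genes 3 did, Il2ra in Treg, Rag1 in DP and Notch1 in gdT (3.14-fold). Of 2 mast cell markers tested 2 did, Cma1 in B+myeloid and Tpsab1 in gdT (26.5-fold, on 20 UMIs). The kinase-side partners at gdT included Grb2 at 202 CPM, Jak2 at 144 CPM, Pik3r1 at 142 CPM, Stat5b at 141 CPM and Gab2 at 138 CPM. Fyn had 127 CPM there, Stat5a 81.6 CPM, Sos1 80.8 CPM and Lyn 47.8 CPM. Among the negative regulators, Cbl had 172 CPM, Cblb 108 CPM and the feedback regulator Socs1 72.7 CPM. At B+myeloid the partners included Lyn at 582 CPM, Grb2 at 386 CPM, Gab2 at 280 CPM and Pik3cd at 110 CPM, with the phosphatase Ptpn6 at 199 CPM.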

How the data were processed

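The authors deposited raw UMI counts per gene and barcode for each library, with tables that give each annotated cell a first cluster and, for most, a projected label. Cell Ranger 8.0.0, Seurat 5.3.0 and the build mRatBN7.2 are named in the submitters' processing notes. The gene annotation and alignment settings are not given in the sources used here. The percent of mitochondrial UMIs per cell in the deposited tables, made by the authors, was not used for filtering here. The deposited counts were used as they stand, and cells without a deposited annotation were left out of the levels. A tissue section of the same series was not used here.

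A cell took its projected label, or its first cluster where it had none. Counts were summed per label and divided by the label's total to give CPM. Mesenchymal cells are the TMC1 to TMC4 and capFb labels. Ratios of labels carry an exact conditional interval, and a denominator under 3 UMIs was set to 3. With 1 library per group no test was made and no p-value is given. No doublet caller was run. Leaving out stromal cells with at least 3 thymocyte transcript UMIs was an alternative. Lead counts need 3-fold over the next label on at least 20 UMIs.

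The members and the gene lists were chosen with earlier results of these data known. Named are the 4 members, list genes that lead a label or differ between DN and DP by 3-fold on at least 20 UMIs, direct partners (shedding, signal relay, negative regulators) at the label where a member is highest, the other list genes set beside the receptors in single cells, and the 5 genes most like a member over labels among genes of at least 100 UMIs. For receptor-positive against other cells, the labels and genes named, and the progenitor, niche and signalling lists, were chosen after their values were seen. Calculations were run in Python 3.11.15 with SciPy 1.17.1 for the intervals, pandas 2.3.3 and NumPy 2.4.6 for the sums, and matplotlib 3.10.9 for the plots. Thinning used seed 7, and the lead rule and ratio interval were tested on simulated data.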

Additional observations from a re-analysis of the deposited data

Results flagged for a closer look

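The stromal library held 2934 barcodes that the deposited annotation leaves out, with 8663291 UMIs, and all 4 genes were detected in them. Kitlg was at 134 CPM (126 to 142), beside 264 CPM in annotated cells. Kit was at 17.9 CPM (15.2 to 20.9; 68 barcodes), beside 13.3 CPM, and the barcode with the most held 17 Kit UMIs and 3 of Foxi1. Flt3lg was at 7.96 CPM (6.20 to 10.1), beside 19.0 CPM. Flt3 was at 6.81 CPM (5.18 to 8.78), beside 1.19 CPM, but its 59 UMIs lay in 8 barcodes and 53 of them in 3 barcodes. The barcode with the most Flt3 held 25 UMIs, with 43 UMIs of dendritic cell markers and 243 of epithelial ones, and the next held 21, with 53 dendritic marker UMIs and 8 of Kit. The dendritic list includes Cd74, which in the stroma was highest in TEC:mTEC2 (9719 CPM), so these sums do not name a cell type. The 28 barcodes of the thymocyte library without annotation had 0 UMIs of all 4 genes.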

How the results depend on the processing

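No paired analysis was possible because there is 1 library for each of the groups. Of 159 alternative values for the 21 leading results, 123 stayed inside the interval of the value reported, 35 left it and 1 more turned a direction whose interval did not include 1; of 482 for 91 named values, 365 stayed and 117 left. With cells thinned to 1000 UMIs the lead of Kit in gdT turned from 3.31 to 0.703, where gdT kept 6 UMIs and intCD4, with 1 UMI counted as 3, came next; at 3000 UMIs it was 1.40. Thinning to 1000 and 3000 UMIs gave leads of 52.4 and 22.9 for Flt3 in MEC and of 95.6 and 96.1 for Kitlg in B+myeloid, Kitlg ratios of 2.05 and 2.09 for endothelium over mesenchyme and of 1.38 and 1.49 for mesenchyme over epithelium, and Flt3lg DN to DP ratios of 0.486 and 0.470. Thinning to 1000 UMIs alone moved Flt3lg mesenchyme over endothelium to 3.50 and over epithelium to 3.19. Thinning to 3000 UMIs alone moved Kitlg endothelium over epithelium to 3.10, Flt3 in B+myeloid to 6.94, Kit DN over DP to 3.89 and the cells with Kit and Flt3 from 9 to 1. The mean of the cells' own CPM gave 0.844 for the lead of Kit in TEC:aaTEC1, which put it below TEC:mimetic(muscle), 2.05, 3.02 and 1.47 for the Kitlg compartment ratios, 34.3 for Kitlg in B+myeloid and 4.28 for Kit in gdT. Totals without mitochondrial, ribosomal and haemoglobin genes gave 1.47 for Kitlg mesenchyme over epithelium. The first clusters in place of labels gave leads of 1.46 for Kitlg (Endo-1), 7.18 for Kit (TEC-e), 33.9 for Flt3 (TEC-a) and 66.0 for Kitlg in thymocytes, and a Kit ratio of 22.7 for cluster DN over cluster DP1, beside 10.8 and 35.9 for the labels DN and gdT over DP. No cluster stands for gdT alone, and cluster DP2 is not in that ratio. Labels of at least 50 cells gave 60.8 for Kitlg in B+myeloid. The Flt3 DN to DP ratio, which rests on 1 DN UMI, went from 0.0728 to 0 with thinning, without the top cell or with DN cells of the DN cluster only, the last chosen after seeing the data. That choice gave 14.2 for Kit DN over DP. Contrasts of cells with and without Kit within 1 cluster were also chosen after seeing the data. The leads against labels with 1 UMI are set by the floor, and the cause of the other shifts was not tested.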
